A study of Mus musculus with 4 samples.

Results

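The glutathione, peroxiredoxin and thioredoxin enzymes of the mouse heart were described in 4 libraries. Members were taken by gene symbol: the Gpx, Gst, Prdx, Sod, Txn, Txnrd, Glrx, Msr, Nqo and Gcl genes together with Cat, Gsr, Gss, Srxn1 and the regulator Nfe2l2. Of 23282 genes in the files, 60 carried such a symbol, and the 53 with a mean normalized read count of at least 4 over the 4 libraries were kept, among 13731 genes that reached this mean. The 7 others were Gsta2 (mean 2.21), Glrx3 (1.90), Gstm3 (1.27), Gpx2 (0.920), Gstt4 (0.711), Gpx5 (0.235) and Gpx6 (0). The lowest members that were kept were Gsta1 (7.52) and Gstm6 (11.8). All 53 are protein-coding genes in the mouse annotation (GENCODE M21, build GRCm38).

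Sequencing of transcript 3′ ends (QuantSeq) in heart RNA was done in male CDF1 mice, a hybrid laboratory strain, given the age label of postnatal day 28. The study states 4 weeks as the age at purchase and took tissues at the end of the experiment, so the hearts were older than this label. The study crossed high-intensity treadmill running on alternate days (E) with tumors raised by tail-vein injection of CT26, a mouse colorectal carcinoma cell line (T). The 4 groups of 10 mice were the unexercised tumor-free E(−)T(−), called baseline below, the exercised tumor-free E(+)T(−), the unexercised tumor-bearing E(−)T(+) and the exercised tumor-bearing E(+)T(+). Each group had 1 heart library, and while the study took gastrocnemius muscle from 1 representative mouse per group and described the heart analysis as similar, the number of mice behind a heart library was not stated for the heart itself. No difference between groups therefore has a replicate check, no p-value was computed, and every interval below is a 95% exact (Clopper-Pearson) interval that covers the counting of reads only. PCR copies of a molecule could not be told apart from separate molecules, so these intervals are the narrowest that apply.

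Hydrogen peroxide and lipid peroxides are reduced in cells along parallel lines. In the first line glutathione, which glutathione transferases also attach to electrophiles, donates electrons to glutathione peroxidases and glutaredoxins and is restored by glutathione reductase. In the other line thioredoxin does this for peroxiredoxins and methionine sulfoxide reductases and is restored by thioredoxin reductase. Both lines draw on NADPH, superoxide dismutases feed them with peroxide, and the heart, which is dense in mitochondria, keeps separate mitochondrial and cytosolic sets. NRF2, the protein of Nfe2l2, is a transcription factor that binds the antioxidant response element upstream of many of these genes.

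A core of that element was searched for in the promoters as 9 letters, TGACNNNGC, on both strands, in RefSeq windows of 300 bases (250 before to 50 after each start, GRCm38.p6). A window was found for 46 of the 53 members, and 10 of the 46 (21.7%) held the core, against 14.0% of all 27025 symbols in the table. These 10 were Gclm, Gsta3, Gstm5, Gstm7, Msrb2, Nfe2l2, Prdx1, Sod1, Srxn1 and Txnrd1. The windows around the core are given below for the regulator itself, for Gclm and Txnrd1, which were upregulated in a tumor comparison below, and for Prdx1 and Sod1, which were among the most abundant members. They run 5′ to 3′ on the strand of the gene, with the core in capitals. It reads as TGACNNNGC in Nfe2l2 and as its reverse complement in the others.
Nfe2l2 (chr2:75704870-75704913, minus strand, core from 240 bases before the start): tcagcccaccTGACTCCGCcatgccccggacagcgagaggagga
Gclm (chr3:122245398-122245456, plus strand, core from 134 bases before the start): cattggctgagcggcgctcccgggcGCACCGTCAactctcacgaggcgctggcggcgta
Txnrd1 (chr10:82859089-82859147, plus strand, core from 92 bases before the start): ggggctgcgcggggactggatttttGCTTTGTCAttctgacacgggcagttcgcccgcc
Prdx1 (chr4:116685441-116685499, plus strand, core from 133 bases before the start): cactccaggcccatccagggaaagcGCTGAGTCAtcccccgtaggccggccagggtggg
Sod1 (chr16:90220681-90220739, plus strand, core from 56 bases before the start): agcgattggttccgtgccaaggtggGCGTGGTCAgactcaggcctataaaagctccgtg
Among the 10 members with the core, 2 changed by at least 2-fold with the tumor in unexercised mice, against 5 of the 36 members without it and 27.6% of all genes. Those 2 were Msrb2 and Nfe2l2, both lower, and no member with the core was upregulated there. In exercised mice the counts were 3 of 10 (Gclm and Txnrd1 higher, Nfe2l2 lower) and 5 of 36, against 23.0% of all genes. Neither count of members with the core stood far from the share of all genes. Nqo1 and Gclc, which are described below, did not hold these letters in this window. A match is a description of the sequence, and binding of NRF2 was not measured.

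Sequencing gave 6595418 counted reads at baseline, 8477140 with exercise only, 9532891 with the tumor only and 11545942 with both. The heart label was met by 8 of 8 cardiomyocyte markers with reads in every library, and none of the 8 differed by 2-fold in any comparison. The E(+)T(+) library stood apart, since 8 erythroid genes (hemoglobin genes, Alas2 and Slc4a1) took 37.4% of its reads against 7.88% to 8.78% of the other 3. Hbb-b1 and Hbb-bs, like Hbb-b2 and Hbb-bt, are near-identical and held similar counts, so the same hemoglobin reads may stand under more than 1 symbol. Scaled to the total of reads alone, this library lowered the median of all genes by 0.59 on the log2 scale against E(−)T(+) and by 0.73 against E(+)T(−). On the normalization of the authors, which is used here unless stated, these medians were −0.01 and −0.02, and changes against E(+)T(+) are therefore to be read relative to the median of all genes. In such bulk tissue, fewer cells of a type and less RNA per cell cannot be told apart.

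The most abundant members by normalized read count were Sod1, the cytosolic copper-zinc superoxide dismutase, Gpx3, the secreted glutathione peroxidase, Sod2, the mitochondrial manganese superoxide dismutase, and Prdx1. Sod1 was measured at 6216 normalized reads at baseline, 6101 after exercise alone, 8498 with the tumor alone and 8988 with both. Since the method yields about 1 read per transcript end, these counts are not divided by length. Where 4 values follow each other without group names below, they keep this order. Members varied over the 4 libraries by a median of 0.65 on the log2 scale between lowest and highest, against 0.89 for every gene whose mean was 4 or more. All members except Gsta1, Gstm6 and Gsto2 had a mean of at least 43, while the set of all genes reaches down to 4. Counting error widens the range of such low genes. These medians, and the shares past 2-fold below, are therefore not matched for abundance. The range was under 0.5 in 17 members and at least 1 in 14. Gstp1, a glutathione transferase of the pi class, varied least of the genes named here (768, 751, 763 and 747 normalized reads in the same order). Its reads and those of its near-identical copy Gstp2 (770, 737, 726 and 788) cannot be assigned with certainty. The highest of the 4 levels lay in E(+)T(+) for 29 of the 53 members, in E(−)T(+) for 12, in E(−)T(−) for 8 and in E(+)T(−) for 4. The same shares among all genes were not counted. On library totals Gpx3 (−0.35), Prdx1 (−0.26) and Sod1 (−0.51) were lower in E(+)T(+) than in E(−)T(+), while Gpx1 (0.62) and Gclm (0.36) stayed higher. These counts therefore hold for the normalization of the authors only.

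A member was called upregulated or downregulated when it differed by at least 2-fold and had at least 4 normalized reads in either library. The study names the same thresholds without saying whether the minimum applies to either library or to both, and the minimum in both libraries was tried as an alternative. That alternative gave 399 higher and 430 lower genes for exercise without a tumor, and 760 and 869 with a tumor. The minimum in either library gave 819 and 892, and 1349 and 1441. The totals that the study reports for the heart lie nearer to the alternative, so the calls used here are the looser ones. Fold changes are differences of the deposited log2(count + 1) values. In this sense 14 of the 53 members (26.4%) differed in at least 1 of the 4 comparisons and 39 in none, against 39.8% of the 13731 genes with this mean that differed in at least 1.

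Exercise without a tumor, E(+)T(−) vs. E(−)T(−), gave few changes among the members. No member was upregulated, where 5.88% of all genes were, and 1 was downregulated (1.89%), where 6.40% of all genes were. This gene was Gsta1, an alpha-class transferase, with 5 reads against 2, and its log2 fold change of −1.33 had an interval from −5.06 to 0.95. The median over the members was −0.03 against 0.00 for all genes, and the median absolute change was 0.17 against 0.26. Short of 2-fold, the highest was Srxn1, which encodes sulfiredoxin and repairs over-oxidized peroxiredoxins (0.62, interval 0.33 to 0.93), followed by Gclc (0.60, interval 0.15 to 1.08).

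The tumor in unexercised mice, E(−)T(+) vs. E(−)T(−), moved members in both directions. Upregulated were 5 of 53 (9.43%), against 14.6% of all genes, and downregulated were 4 (7.55%), against 13.1%. The former were Nqo1, Gpx3, Sod3, Gclc and Gstm2, and the latter were Gstt1, Msrb2, Nfe2l2 and Gsto2. These shares lay below those of all genes, and the median was 0.14 against −0.02. When reads were scaled to the library total the split changed from 5 higher and 4 lower to 3 higher and 5 lower, with Gclc (0.997) and Gstm2 (0.95) just under the threshold.

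Exercise in tumor-bearing mice, E(+)T(+) vs. E(−)T(+), was followed by 3 upregulated members (Gpx1, Gsto2 and Gstm6; 5.66%), against 9.39% of all genes, and by no downregulated member, against 10.0% of all genes. The median was 0.20 against −0.01 for all genes, and 37 of 53 members lay above 0. With library totals as the scale the split was 1 higher and 5 lower and the median was −0.38, which was still above the all-gene median of −0.59 on that scale. There, too, 37 of 53 members lay above the all-gene median.

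In exercised mice the tumor comparison, E(+)T(+) vs. E(+)T(−), gave 7 upregulated members (13.2%), against 12.0% of all genes, and 1 downregulated member (1.89%), against 11.1%. Gclm, Gpx1, Gpx3, Txnrd1, Gsta1, Gsto2 and Gstm6 were higher and Nfe2l2 was lower. The median was 0.34 against −0.02, and 41 of 53 lay above 0. Library totals gave 3 higher and 6 lower and a median of −0.38 against −0.73 for all genes, with 41 of 53 members above that median. Each library enters 2 of the 4 comparisons, which are therefore not independent of each other.

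**Figure D1:**
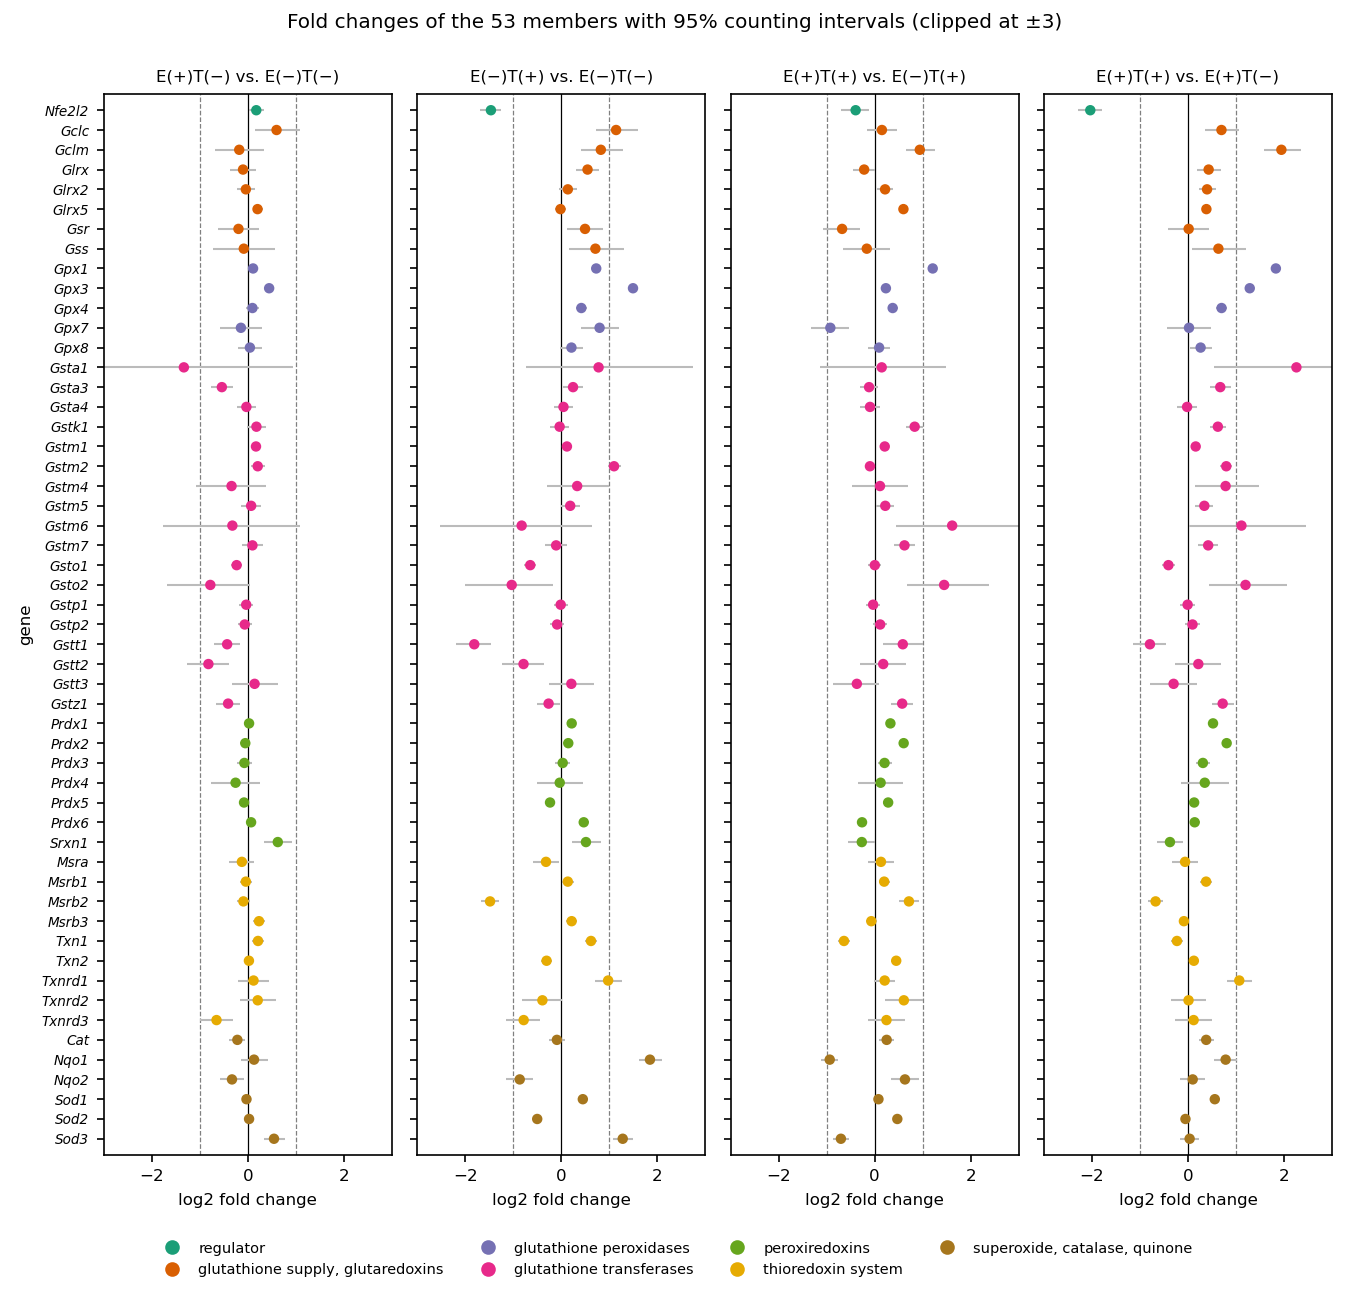
Log2 fold changes of members in the 4 comparisons, with each point 1 gene, horizontal bars giving 95% counting intervals (drawn only to −3 and 3) and dashed lines at 2-fold. Exercise without a tumor stays within the 2-fold lines except for Gsta1, while the tumor comparisons reach from −2.03 (Nfe2l2) to 2.26 (Gsta1).

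The transcript of the regulator was downregulated with the tumor. Nfe2l2 (chr2:75675513-75704641) was measured at 621 normalized reads without exercise or tumor, 702 with exercise only, 225 with the tumor only and 171 with exercise and tumor. Both tumor libraries lay below both tumor-free libraries. The log2 fold change with the tumor was −1.46 (interval −1.69 to −1.25) without exercise and −2.03 (interval −2.30 to −1.79) with exercise, and both stayed past 2-fold under each other scaling tried. These are levels of its mRNA, and the protein, which is controlled largely by degradation through KEAP1, was not measured. An order in which both tumor libraries lie on the same side can arise by chance with so few libraries. The share of all genes with such an order, given here and for some members below, was not counted.

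Of 9 regulators of NRF2 in a separate list, 3 were upregulated and none downregulated with the tumor in unexercised mice, where 14.6% of all genes were higher and 13.1% lower. Maff, a small MAF protein that pairs with NRF2 on DNA, had 44 reads at baseline, 182 after exercise alone, 321 with the tumor alone and 622 with both. It was upregulated in all 4 comparisons, by 1.68 for exercise without a tumor, 2.46 for the tumor without exercise, 1.26 for exercise with a tumor and 2.04 for the tumor with exercise. Mafk, a related partner, rose with the tumor (1.09 without and 1.13 with exercise), and Sqstm1, whose product p62 sequesters KEAP1, rose in unexercised mice (1.13, with 1789 reads in E(−)T(−) and 5077 in E(−)T(+)).

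Targets of NRF2 that the symbol rule did not cover were followed in a list of 13 genes, 12 of which reached the mean of 4. With the tumor in unexercised mice 2 were upregulated, 1 was downregulated and the median was 0.75. With so few genes these counts stand near the 14.6% and 13.1% of all genes. Hmox1, which encodes heme oxygenase and breaks down heme, had 16 reads without exercise or tumor, 41 with exercise only, 313 with the tumor only and 85 with exercise and tumor. It rose with the tumor by 3.82 (interval 3.19 to 4.74) and was lower with exercise in tumor-bearing mice by a log2 fold change of −1.56. Fth1, the ferritin heavy chain that stores iron, rose with the tumor by 1.22 in unexercised mice. Blvrb, a biliverdin reductase abundant in red cells, had 246 reads in E(+)T(−) and 571 in E(+)T(+), a log2 fold change of 1.49, beside the erythroid share given above.

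The ligase of glutathione synthesis was higher with the tumor. Glutamate-cysteine ligase makes the rate-limiting step of glutathione synthesis and consists of a catalytic subunit (Gclc) and a modifier subunit (Gclm). Gclc (chr9:77754535-77794485) was measured at 70.1 normalized reads at baseline, 107 after exercise alone, 156 with the tumor alone and 174 with both. Its tumor change without exercise was 1.14 (interval 0.73 to 1.60), and with exercise it was 0.70 (interval 0.35 to 1.06) and short of 2-fold. Gclm (chr3:122245557-122270732) was measured at 74.7, 65.9, 133 and 257 normalized reads in the same order. The tumor-bearing libraries were the higher ones for both subunits, and E(+)T(+) was the highest. For Gclc this order did not hold on library totals. There E(+)T(+) differed by −0.02 from E(+)T(−) and by −0.43 from E(−)T(+). For Gclm the tumor change was 0.83 (interval 0.41 to 1.28) without exercise and 1.95 (interval 1.58 to 2.36) with exercise, and the latter remained 1.23 when scaled to library totals.

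Of the 7 genes of glutathione supply and the glutaredoxins, 6 lay above 0 with the tumor in unexercised mice (median 0.55) and 7 of 7 in exercised mice (median 0.43). On library totals the latter count was 1 of 7 with a median of −0.29, although 7 of 7 stayed above the median of all genes. Gss, glutathione synthetase, differed by 0.71 (interval 0.17 to 1.31) in unexercised mice without reaching 2-fold. Gsr, glutathione reductase, was measured at 107, 93.1, 151 and 94.1 normalized reads, so that E(−)T(+) alone stood higher. The most abundant members here were Glrx5, a mitochondrial glutaredoxin of iron-sulfur cluster assembly, Glrx2 and Glrx. Glrx5 was measured at 1460, 1681, 1446 and 2194 normalized reads, and its change with exercise in tumor-bearing mice was 0.60 (interval 0.51 to 0.70). Its change with the tumor in exercised mice was 0.38, which turned to −0.34 on library totals. The erythroid genes named above were upregulated in the same library, and their part in these values was not tested. Glrx2 was measured at 463, 450.3, 509.9 and 594 normalized reads and Glrx at 249.9, 233, 366 and 315.

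Genes that take glutathione apart or carry it were also counted, from a list of 18 of which 16 reached the mean of 4. With the tumor in unexercised mice 5 were upregulated and 1 was downregulated (median 0.71), where 14.6% and 13.1% of all genes were. Chac1, which degrades glutathione and is induced in the stress response to amino acid lack, had 1 read without exercise or tumor, 18 with exercise only, 66 with the tumor only and 52 with exercise and tumor. Against 1 read its tumor change of 4.64 had an interval from 3.14 to 11.0. Hpgds, a prostaglandin D synthase that uses glutathione, had 11, 33, 75 and 13 reads, and Mgst2, a microsomal transferase, had 11, 3, 24 and 3. Exercise in tumor-bearing mice went with 1 upregulated gene, Slc25a39, and 4 downregulated ones, beside 9.39% and 10.0% of all genes. Slc25a39, which brings glutathione into mitochondria and was picked here after its values were seen, had 1210, 1606, 1197 and 3220 reads and a change of 1.74 (interval 1.64 to 1.83). It is also known to be abundant in erythroid cells.

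All 5 glutathione peroxidases that reached the mean of 4 lay above 0 with the tumor, both without exercise (median 0.73) and with exercise (median 0.70), though only Gpx3 reached 2-fold in the former and Gpx1 and Gpx3 in the latter. Of all genes 14.6% and 12.0% were upregulated in these comparisons. With exercise and library totals as the scale, 2 of 5 lay above 0 with a median of −0.02, and 5 of 5 lay above the median of all genes. Gpx3 (chr11:54902453-54910377) was measured at 2653 normalized reads at baseline, 3612 after exercise alone, 7485 with the tumor alone and 8816 with both. Both tumor-bearing levels lay above both tumor-free ones, an order whose share among all genes was not counted. The log2 fold change with the tumor was 1.50 (interval 1.43 to 1.56) without exercise and 1.29 (interval 1.23 to 1.34) with exercise, and the latter was 0.57 when scaled to library totals. Its exercise changes were 0.45 (interval 0.37 to 0.52) without and 0.24 (interval 0.19 to 0.28) with a tumor, and the last of these turned to −0.35 on library totals.

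Gpx1, the cytosolic glutathione peroxidase that is also abundant in red cells, showed a different order. It lies at chr9:108338903-108340343 and was measured at 1976, 2132, 3278 and 7589.6 normalized reads. E(+)T(+) stood apart from the other libraries, with changes of 1.21 (interval 1.15 to 1.27) against E(−)T(+) and 1.83 (interval 1.76 to 1.90) against E(+)T(−). On library totals these were 0.62 and 1.11. The tumor change in unexercised mice was 0.73 (interval 0.65 to 0.81), where the erythroid share differed little (8.78% and 7.88%). In E(+)T(+) all 8 erythroid markers used here were upregulated against both other libraries, with a median of 2.93 against E(−)T(+), their summed normalized reads lay between 645689 and 663809 in the other libraries and at 4722100 in this one, and none of the 8 was at 0 in any library. The part of red cells in the Gpx1 values was not tested.

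Gpx4, which reduces lipid peroxides in membranes, was measured at 1011, 1081, 1353 and 1757 normalized reads, a tumor change of 0.42 (interval 0.30 to 0.54) without exercise. Gpx7 and Gpx8 are peroxidases of the endoplasmic reticulum. Gpx8 was the steadier, with a log2 range of 0.31 over the 4 libraries. Gpx7 was measured at 92.9, 84.0, 162 and 85.3 normalized reads, so that its tumor change of 0.80 (interval 0.42 to 1.20) was not seen in exercised mice (0.02, interval −0.43 to 0.47).

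**Figure D2:**
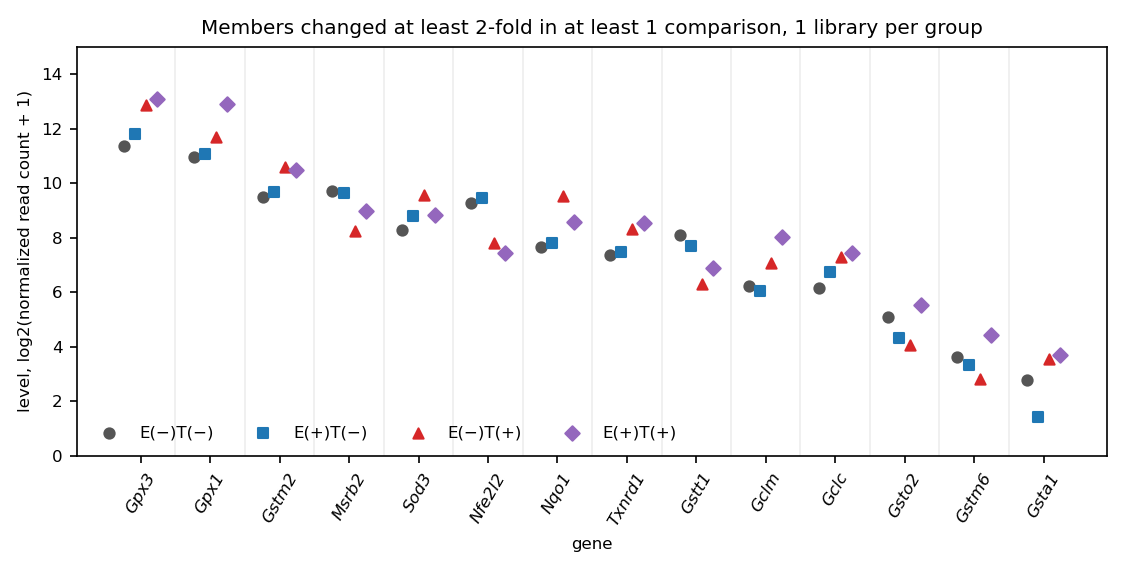
Level of the 14 members that differed by at least 2-fold in at least 1 comparison, as log2(normalized read count + 1), with 1 point for each of the 4 libraries and no error bars since each group has 1 library. Gpx3 lies higher and Nfe2l2 lower in both tumor-bearing libraries, and Gpx1 is highest in E(+)T(+).

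Glutathione transferases, which attach glutathione to electrophiles, were the largest family with 18 members and had no common direction. Their medians were −0.15 for exercise without a tumor, −0.02 for the tumor without exercise, 0.16 for exercise with a tumor and 0.38 for the tumor with exercise. The 3 most abundant were Gstm1, Gstm2 and Gsto1. Gstm1 was measured at 2183, 2458, 2373 and 2749 normalized reads. Gstm2 (chr3:107981702-107986453) was measured at 718, 828, 1540.4 and 1441 normalized reads and was higher in both tumor-bearing libraries, by 1.10 (interval 0.97 to 1.24) without and 0.80 with exercise. On library totals its tumor change in exercised mice was 0.08. Reads of the mu-class genes may be split between near-identical copies, so values of single Gstm genes are uncertain.

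Gsto1, an omega-class transferase, ran the other way, at 1292, 1099.5, 826 and 829 normalized reads, with a tumor change of −0.64 (interval −0.77 to −0.52) that was short of 2-fold. Gstt1 (chr10:75783813-75798584), of the theta class, was the member with the largest fall with the tumor in unexercised mice. It was measured at 277 normalized reads without exercise or tumor, 205 with exercise only, 78.3 with the tumor only and 118 with exercise and tumor. The tumor change was −1.81 (interval −2.19 to −1.46) without exercise and −0.79 (interval −1.14 to −0.46) with exercise. The remaining theta-class members differed from it, with changes of −0.78 (Gstt2) and 0.21 (Gstt3) for the tumor without exercise.

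The 3 other called transferases rested on few reads. Gsto2 had 29, 21, 18 and 41 reads, Gstm6 had 10, 10, 7 and 19, and Gsta1 had 5, 2, 12 and 11. Gsto2 was measured at 33.2, 18.9, 15.7 and 44.7 normalized reads, with changes of −1.03 (upper end of the interval −0.17) for the tumor without exercise and 1.45 (interval 0.67 to 2.38) for exercise with a tumor. The change of Gstm6 with exercise in tumor-bearing mice was 1.62 with an interval from 0.44 to 3.24. For Gsta1 in exercised mice the tumor change of 2.26 rested on 2 reads against 11 and had an interval from 0.54 to 5.95. Gsta1 and its close copy Gsta2 share sequence, so both are uncertain. Gsta3, Gsta4, Gstm4, Gstm5, Gstm7 and Gstz1 lay between −0.26 (Gstz1) and 0.33 (Gstm4) for the tumor without exercise, and Gstk1, the mitochondrial kappa-class member, is given with the mitochondrial genes below.

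Peroxiredoxins and sulfiredoxin had no member past 2-fold in any comparison, against 39.8% of genes with a mean of at least 4. Prdx1, a cytosolic peroxiredoxin, was measured at 3489 normalized reads at baseline, 3555 after exercise alone, 4061 with the tumor alone and 5105 with both. Its tumor change was 0.22 (interval 0.15 to 0.29) without and 0.52 (interval 0.46 to 0.58) with exercise, and the latter turned to −0.20 on library totals. Prdx5, found in mitochondria and peroxisomes, was measured at 2039.9, 1932, 1737 and 2113. Prdx2, the peroxiredoxin that red cells hold in large amounts, was measured at 1556, 1501, 1725 and 2626. It was highest in E(+)T(+), with a change of 0.61 (interval 0.52 to 0.69), or 0.02 on library totals, with exercise in tumor-bearing mice. This difference lay beside the erythroid markers described for Gpx1, and the part of red cells in it was not tested. Prdx6, which also acts as a phospholipase, was 0.47 higher with the tumor in unexercised mice (interval 0.37 to 0.57) and −0.26 with exercise in tumor-bearing mice. Srxn1 was measured at 166, 257, 238 and 198 normalized reads, so that E(−)T(−) alone was lowest by more than the counting error against E(+)T(−) (0.62) and E(−)T(+) (0.52).

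**Figure D3:**
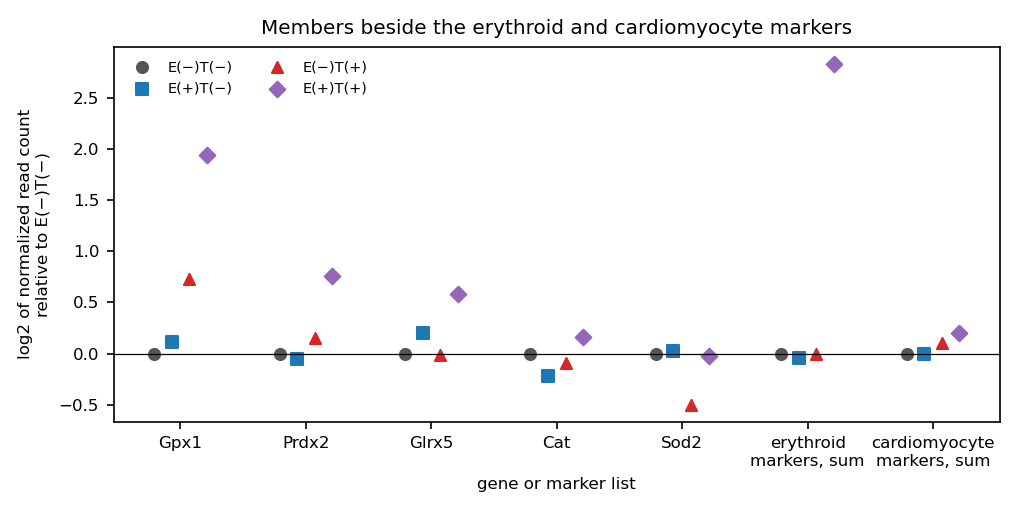
Normalized read counts of 5 members and the summed counts of the erythroid and the cardiomyocyte markers, as log2 relative to E(−)T(−), with 1 point per library and no error bars. Gpx1, Prdx2, Glrx5 and Cat are highest in E(+)T(+), as are the erythroid markers, which take 37.4% of its reads, and the cardiomyocyte sum. Sod2 is lowest in E(−)T(+).

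The thioredoxin system moved unevenly. Txnrd1, the cytosolic thioredoxin reductase and a selenoprotein (chr10:82833951-82897712), was measured at 163 normalized reads without exercise or tumor, 177 with exercise only, 322 with the tumor only and 373 with exercise and tumor, and the tumor-bearing libraries were the higher ones. Its tumor change was 0.98 (interval 0.70 to 1.27) without exercise, just short of 2-fold, and 1.07 (interval 0.82 to 1.33) with exercise, just past it. The latter was 0.90 when genes above 1% of a library were left out of the scale and 0.35 on library totals. Txn1, cytosolic thioredoxin, was measured at 995, 1153, 1531 and 984 normalized reads. It was 0.62 (interval 0.50 to 0.74) higher with the tumor in unexercised mice and lower, by a log2 fold change of −0.64 (interval −0.75 to −0.52) with exercise in tumor-bearing mice.

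Msrb2 (chr2:19371440-19394976), a mitochondrial methionine sulfoxide reductase that restores oxidized methionine, was downregulated with the tumor in unexercised mice. It was measured at 848, 796, 303 and 499 normalized reads, and both tumor-bearing libraries lay below both tumor-free ones. The tumor change was −1.48 (interval −1.67 to −1.30) without exercise and −0.67 (interval −0.84 to −0.51) with exercise. Msrb3, of the endoplasmic reticulum and mitochondria, stayed between 1160 and 1364 normalized reads, and Txn2, mitochondrial thioredoxin, between 1247 and 1705. The other reductases differed in sign from Txnrd1 with the tumor in unexercised mice, with −0.39 (interval −0.81 to 0.02) for the mitochondrial Txnrd2 and −0.78 (interval −1.14 to −0.43) for Txnrd3. Of 8 partners of thioredoxin in a separate list only Txnip was past 2-fold in any comparison, against 39.8% of genes with a mean of at least 4. Txnip, whose product binds and inhibits thioredoxin, had 5553 reads in E(−)T(−) and 2499 in E(+)T(−), a change of −1.49 (interval −1.56 to −1.43) with exercise in tumor-free mice, and 4426 and 3991 reads in the tumor-bearing libraries.

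Among superoxide dismutases, catalase and the quinone reductases, Nqo1 had the largest tumor change of all members in unexercised mice. Nqo1 (chr8:107388225-107403206), a quinone reductase and a standard target of NRF2, was measured at 203 normalized reads at baseline, 222 after exercise alone, 734 with the tumor alone and 384 with both. Its tumor change was 1.85 (interval 1.62 to 2.10) without exercise and 0.79 (interval 0.55 to 1.03) with exercise, and the latter was 0.07 on library totals. Exercise in tumor-bearing mice went with −0.93 (interval −1.12 to −0.75). Nqo2, its relative, was measured at 299, 238, 164 and 255 normalized reads, with the lowest level where Nqo1 was highest.

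Sod3 (chr5:52363791-52371418), the superoxide dismutase of the extracellular matrix, was measured at 307, 449, 749 and 460.4 normalized reads. E(−)T(+) was highest, by 1.28 (interval 1.09 to 1.49) over E(−)T(−) and by 0.70 over E(+)T(+). Sod2 was measured at 5227, 5326, 3698 and 5137 normalized reads and was lowest in E(−)T(+), where Sod3 was highest. Cat, catalase, was measured at 659, 567, 620 and 738 and differed by at most 0.38 on the log2 scale. Summed markers of connective tissue cells and of macrophages were, like Sod3, Gpx7, Nqo1, Txn1, Hmox1 and Hpgds, highest in E(−)T(+). Not every single marker followed. The macrophage markers Csf1r (−0.11) and Adgre1 (−0.37) were lower with the tumor in unexercised mice. The fibroblast marker Postn rose more with exercise alone (1.07) than with the tumor alone (0.805). Summed normalized reads of 6 fibroblast markers were 24795 without exercise or tumor, 29855 with exercise only, 54156 with the tumor only and 31537 with exercise and tumor, with 4 of 6 upregulated by the tumor in unexercised mice, 5 of 6 downregulated in E(+)T(+) vs. E(−)T(+) and none at 0. Dcn made up most of this sum (45866 reads with the tumor only), and against E(+)T(−) 4 of 6 were downregulated in E(+)T(+) with a median of −1.54. For 7 macrophage markers the sums were 2561, 3169, 5344 and 2658, with 5 of 7 upregulated by the tumor in unexercised mice, 4 of 7 downregulated by exercise in tumor-bearing mice and 1 marker (Marco) at 0 in E(+)T(−). The part of these cells in the values of Sod3, Gpx7, Nqo1, Txn1, Hmox1 and Hpgds was not tested.

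Members listed as cytosolic and as mitochondrial differed in the sign of their medians with the tumor in unexercised mice. Of the 15 listed as cytosolic, which leave out the glutathione transferases, 14 lay above 0 (median 0.55, all except Nqo2). Of the 9 listed as mitochondrial, 2 did (median −0.23). Set against the median of all genes these counts were 14 of 15 and 3 of 9, and they were the same on library totals. With the tumor in exercised mice both medians were above 0, with 13 of 15 cytosolic members (median 0.56) and 7 of 9 mitochondrial members (median 0.13) on that side. On library totals these were 5 of 15 (median −0.16) and 0 of 9 (median −0.59). Both medians stayed above that of all genes on this scale (−0.73). The mitochondrial members were Glrx2, Glrx5, Gstk1, Msrb2, Prdx3, Prdx5, Sod2, Txn2 and Txnrd2. With exercise in tumor-bearing mice all 9 of them lay above 0 (median 0.47, range 0.21 to 0.83), and on library totals 4 of 9 lay above 0 while 9 of 9 lay above the median of all genes. The highest of the 9 was Gstk1, with 409, 464, 400.4 and 715 normalized reads and a change of 0.83 (interval 0.66 to 1.01). None of the 9 reached 2-fold in that comparison, against 19.4% of all genes, and in exercise without a tumor the median of the same genes was 0.02. Markers of other cell types also moved between these 2 tumor-bearing libraries. Of 6 white adipocyte markers 5 were upregulated in E(+)T(+) vs. E(−)T(+), with sums of 2026, 526, 434 and 2582 normalized reads and Lep at 0 in all libraries except baseline and Plin1 at 0 with the tumor only. For 3 brown adipocyte markers, cells dense in mitochondria, the sums were 430, 418, 579 and 1832, and 2 of 3 were upregulated. Ucp1, the defining gene of brown fat, had 814 reads in E(+)T(+) and 0 in the other 3 libraries, and Elovl3 had 47 reads against 0 in E(−)T(+). The 8 erythroid markers were upregulated as well. The part of these cells in the mitochondrial values was not tested. Members share a compartment and 2 libraries here, so their number is no measure of replication. These places were assigned from general knowledge of the proteins, and no transferase except Gstk1 was given a place. With the tumor in unexercised mice the 18 transferases, Gstk1 included, had 8 above and 10 below 0 (median −0.02). The cytosolic counts therefore hold for the 15 listed members only.

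Selenoproteins, which carry selenocysteine at the active site, made up 7 members (Gpx1, Gpx3, Gpx4, Msrb1, Txnrd1, Txnrd2 and Txnrd3). With exercise in tumor-bearing mice 7 of 7 lay above 0 (median 0.25), but on library totals 2 of 7 did, and 7 of 7 lay above the median of all genes on both scales. The machinery that makes selenoproteins, together with the remaining ones, was a list of 15 with 14 at a mean of 4 or more. In E(+)T(+) vs. E(−)T(+) the elongation factor gene Eefsec was upregulated (1.21, 22 and 42 reads) and Sep15 downregulated (−1.27), beside 9.39% and 10.0% of all genes. None of this list was called in the 3 other comparisons, where 12.3%, 27.6% and 23.0% of all genes were.

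NADPH, the electron source of both lines, comes from enzymes of which 12 were listed. Only Tkt, the transketolase of the pentose phosphate pathway, was called, and it was lower with exercise without a tumor (−1.15, 236 and 134 reads) and with the tumor without exercise (−1.02, 151 reads). Among 12 sources of oxidants, 4 were upregulated and 1 downregulated with the tumor in unexercised mice, beside 14.6% and 13.1% of all genes. Nox4, a peroxide-forming NADPH oxidase, had 9 reads at baseline, 54 after exercise alone, 61 with the tumor alone and 45 with both, so that the baseline library alone was low. Summed normalized reads of 3 smooth muscle markers (1947, 5365, 3915 and 3554, none at 0) were also lowest at baseline, and their part in the Nox4 values was not tested. Nos2, the inducible nitric oxide synthase, had 28, 22, 2 and 3 reads. Mpo, the myeloperoxidase of neutrophils, had 0, 2, 7 and 12 reads, beside 6 neutrophil markers whose summed normalized reads were 121, 81.4, 3167 and 6097, all 6 upregulated with the tumor and 2 at 0 in E(−)T(−) and 1 in E(+)T(−). The part of neutrophils in these values was not tested.

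The exercise change was then compared between tumor-bearing and tumor-free mice, which use separate libraries. It had opposite signs in 31 of 53 members (58.5%), against 49.1% of the 13731 genes with a mean of 4 or more. In 7 of them (Cat, Gstt1, Gstz1, Nfe2l2, Nqo2, Sod3 and Txn1, or 13.2%) both counting intervals were clear of 0, against 8.09% of those genes. No member was past 2-fold in both comparisons in opposite directions, while 284 of the 23282 genes in the files were. This count rests on the looser calls, with the minimum in either library. The study reports fewer such genes for the heart. Since the share among all genes is small, the absence of such a gene among 53 members does not set them apart. Gpx1 gave a difference of 1.10 between its exercise changes, tumor-bearing minus tumor-free, with a counting interval from 0.99 to 1.21. Gclm gave 1.12 (interval 0.55 to 1.69), with exercise changes of −0.18 without and 0.94 with a tumor. On the opposite side were Sod3 at −1.25 (interval −1.52 to −0.97) and Nqo1 at −1.06 (interval −1.40 to −0.73). With 1 library per group the difference of these changes between mice was not tested, and on library totals the tumor-bearing change of every gene lies lower, so that for Gstt1 it was 0.00 in place of 0.59 and for Cat −0.33 in place of 0.25.

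**Figure D4:**
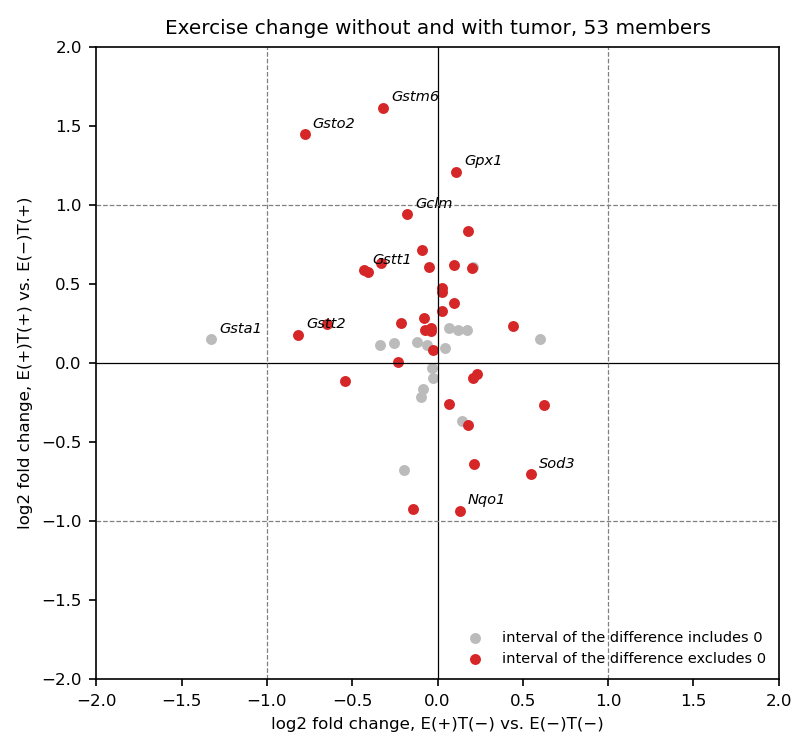
Log2 fold change with exercise in tumor-free mice (horizontal) against that in tumor-bearing mice (vertical) for 53 members, red where the counting interval of the difference excludes 0 and grey otherwise, dashed lines at 2-fold and names for differences of at least 1. Gpx1 and Gclm lie high on the vertical axis near 0 on the horizontal one, and Sod3 and Nqo1 lie low.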

How the data were processed

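Heart RNA was extracted with Trizol and made into QuantSeq 3′ libraries. Per the labels and methods, the authors mapped reads to mm10 with Bowtie2, used Bedtools for counting and applied the quantile normalization of edgeR. The deposited values are log2(normalized read count + 1). Tool versions were not given in the sources used here. From these values the whole reads were recovered by inverting the quantile adjustment (dispersion 0.149, relative effective sizes 0.872, 1.106, 1.134 and 0.914 for E(−)T(−), E(+)T(−), E(−)T(+) and E(+)T(+)). The recovered reads gave back every deposited value within 0.000538. The scripts ran in Python 3.11.15 with numpy 2.4.6, scipy 1.17.1 and pandas 2.3.3 and were tested on simulated data. A count test was not used, since each group has 1 library. DEGs were called at 2-fold with a normalized count of at least 4 in either library. Counting intervals (95%, Clopper-Pearson) were taken from the recovered reads of both libraries, given their effective sizes. Genes named are members past 2-fold in any comparison, the 3 most abundant in each role, and up to 3 changed genes of each other list by size of change. Other members named, such as Gsr, Gpx7, Srxn1 and Nqo2, were chosen after their values were seen. The members, lists and alternatives were chosen with earlier results of these data known. No table of protein sequences was used here. An item of a marker list is not reported here.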

Additional observations from a re-analysis of the deposited data

Results flagged for a closer look

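Sod3 and Gstt1 were singled out because exercise moved them in opposite directions in tumor-free and tumor-bearing mice by more than the counting error, with a difference of at least 2-fold between the changes. For Sod3 exercise gave 0.55 (interval 0.33 to 0.77) without a tumor and −0.70 (interval −0.87 to −0.53) with one, a difference of −1.25 tumor-bearing minus tumor-free. Gstt1 gave −0.43 (interval −0.70 to −0.17) without a tumor and 0.59 (interval 0.17 to 1.01) with one, a difference of 1.02. Neither difference was tested, since each group had 1 library. On library totals the tumor-bearing change of Gstt1 was 0.00 and that of Sod3 was −1.29.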

How the results depend on the processing

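The count of members past 2-fold for E(+)T(−) vs. E(−)T(−) went from 1 to 0 under a count minimum of 16, under a minimum of 4 in both libraries and under a pseudocount of 4. For E(+)T(+) vs. E(−)T(+) it went from 3 (3 higher and 0 lower) to 6 (1 and 5) when scaled to library totals and to 8 (1 and 7) when reads were subsampled to the smallest library. The median over members reversed under those scalings, to −0.38 and −0.43 for E(+)T(+) vs. E(−)T(+) and to −0.38 and −0.42 for E(+)T(+) vs. E(+)T(−), while the median of all genes moved to −0.59 and −0.73 on library totals. The split for E(+)T(+) vs. E(+)T(−) of 7 higher and 1 lower became 3 and 6 on library totals, 3 and 5 after subsampling and 5 and 1 without genes over 1% of a library, and that for E(−)T(+) vs. E(−)T(−) became 3 and 5 on library totals and without genes over 1%. Median-of-ratios size factors called the same members in all 4 comparisons. Over all genes the percent past 2-fold was 12.3, 27.6, 19.4 and 23.0 for exercise without a tumor, the tumor without exercise, exercise with a tumor and the tumor with exercise. It was 6.59, 22.7, 13.5 and 17.4 at a minimum of 16 and 6.48, 20.3, 12.6 and 15.6 at 4 in both libraries. For the last 2 comparisons it was 29.4 and 40.9 on library totals and 31.3 and 41.7 after subsampling. With no minimum, 1264 genes were higher and 1534 lower for exercise without a tumor, against 819 and 892. Of 105 values of 21 member calls under 5 alternatives, 0 reversed and 23 were no longer past 2-fold. Low counts, with at most 41 reads in a library, limit Gsta1, Gstm6 and Gsto2. No paired analysis was possible because each group had 1 library.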
